A study of Homo sapiens with 24 samples.

Results

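The genes described here are 60 protein-coding genes of human chromosome 8, taken as a set of neighbours of which most were lower in GPRC5A knockout cells. They are 60 of the 60623 genes of the deposited count table. They run from FBXO25 near the end of the short arm to TPD52 on the long arm, between positions 406428 and 80231232 of chromosome 8 (GRCh38, GENCODE 29), a span of 79.8 Mb. Of the 60, 57 had enough counts to be tested among 14059 genes, 51 of them on the short arm and 6 on the long arm. The set was chosen from the difference between knockout and wild-type cells in these same libraries, so that difference is described below without a test. The responses to treatment, and their dependence on genotype, were tested. Independence of treatment was among the traits by which the set was described, with earlier results of these data known. Those tests are therefore not independent of the choice.

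HT-29 is an established line of epithelial cells from a human colon cancer. Wild-type (WT) cells and cells knocked out for GPRC5A (KO), a retinoic acid-induced receptor of the membrane, were each kept for 8 h with 0.1% DMSO, with 50 µM 7FTA, with 10 ng/mL of the cytokine TNFα, or with both agents. Every one of the 8 groups was represented by 3 libraries, 24 in all. The labels give the DMSO content for the DMSO groups alone. They do not say whether the 3 libraries of a group came from separate cultures, so the error below is the spread between libraries, which may be technical. Nor do they say whether the KO cells were 1 clone or a pool. Loss of GPRC5A and any other difference between the WT and KO cells therefore cannot be told apart.

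Genes that lie side by side on a chromosome are often regulated separately, but they share the number of copies of their stretch. When a stretch is present in fewer copies, the RNA of most of its genes tends to be lower by a similar proportion, and single genes depart from it through their own regulation. The short arm of chromosome 8 is often lost in colorectal cancers, and cancer lines such as HT-29 carry abnormal chromosome numbers. Copy number was not measured in these libraries. The genes themselves have unrelated roles, among them repair of DNA, export from the nucleus, the lysosome, lipid synthesis, iron import and ubiquitin ligation.

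Total counts per library ran from 16782857 to 27247407, and TMM scaling factors from 0.944 to 1.05. GPRC5A RNA was between 202 and 249 CPM (counts scaled to library size) in the 12 WT libraries and between 64.7 and 80.6 CPM in the 12 KO libraries. It was thus lower in every KO library but not absent from any. Markers of colon epithelium summed to 18046 to 20629 CPM in WT and 15204 to 17142 CPM in KO libraries, with all 9 markers detected. The 5 leukocyte markers summed to at most 8.51 CPM in any library. The 6 fibroblast markers summed to at most 2.03 CPM, with 1 of them at 0 in all libraries, and the 4 endothelial markers to at most 1.64 CPM, again with 1 at 0. Their part in the results below was not tested. In RNA from whole cultures, fewer cells that express a gene and less RNA per cell cannot be told apart.

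Most of the genes were lower in KO cells. Over the mean of the 4 treatments, the median log2 difference between KO and WT of the 57 tested members was -0.53, which is 69.4% of the WT level, with quartiles of -0.69 and -0.22. The same median over all 14059 tested genes was 0.01. A gene is called where its Benjamini-Hochberg adjusted p in edgeR's quasi-likelihood test over all tested genes was under 0.05. By that rule 47 of the 57 were called lower (82.5%, against 34.7% of all genes) and 5 higher (8.77%, against 36.3%), and 5 were not called. Since this contrast chose the genes, nothing is read from these counts. The name of the set did not hold for all of it: CLU, MTUS1, ASPH, BNIP3L and PPP1R3B were above 0.

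Between -0.4 and -0.8 on the log2 scale lay 34 of the 57. Another 6 were below -0.8, 12 lay between -0.4 and 0, and 5 were above 0. Over all 57 the standard deviation between genes was 0.44 and the median standard error 0.04, so the genes differed from each other by much more than the error of each. For 36 members every KO library was below every WT library, which held for 9.41% of all genes. The reverse held for 2, CLU and ASPH, against 7.77% of all genes.

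**Figure D1:**
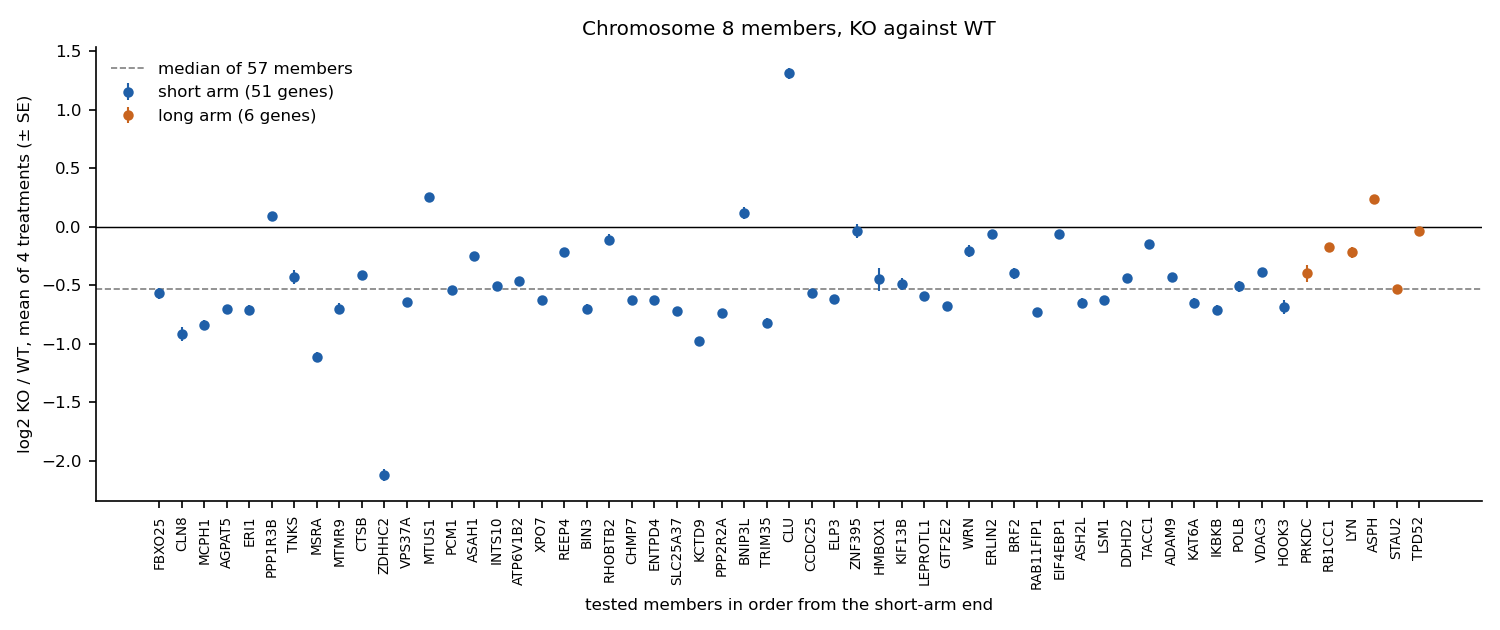
Log2 difference between KO and WT (mean of 4 treatments, bars are SE) of the 57 tested members, in their order from the short-arm end, with short-arm genes in blue and long-arm genes in orange. Most short-arm genes lie below 0, the dashed line marks the median of -0.53, ZDHHC2 lies lowest at -2.12 and CLU highest at 1.31.

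Along the chromosome, the shift was of similar size over the whole short arm and smaller beyond it. The 51 short-arm members had a median of -0.57 (67.3% of WT) and the 6 long-arm members a median of -0.20 (87.2%). Neighbours that are not in the set followed the same course: the 97 other tested genes of the short arm had a median of -0.51, and the 66 other tested long-arm genes of the span a median of -0.16. Of these 163 neighbours 113 were called lower, 21 higher and 29 not at all, where 34.7% of all genes were lower and 36.3% higher. The stretch itself was chosen from this contrast, so these counts are a description. The 252 tested genes of chromosome 8 beyond TPD52 had a median of -0.13. The nearest protein-coding genes past the edge of the span differed widely, from ZNF704 (-1.17) and ZBTB10 (-1.11) through FABP5 (-0.64) and IMPA1 (-0.31) to PAG1 (0.49), beside TPD52 itself at -0.04.

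In bins of 10 Mb, the medians of all tested genes were -0.56, -0.61, -0.51, -0.48 and -0.51 over the first 50 Mb. They were -0.18, -0.18 and -0.05 over the next 3 bins, and between -0.32 and -0.05 in the remaining 7 bins, 2 of which held fewer than 20 genes. The fifth bin holds genes of both arms. Within it lies the centromeric gap, which among tested genes runs from HGSNAT (ending at 43202855) to SPIDR (starting at 47260575). Outside the set, its long-arm genes were UBE2V2 (-0.35), SPIDR (-0.27), MCM4 (-0.25) and CEBPD (-0.23), all above the median of the bin. Its short-arm genes outside the set ran from SLC20A2 (-0.78) to RNF170 (-0.26). Bins of this width therefore do not place the step. Across the 57 members, Pearson's r between order along the chromosome and the log2 difference was 0.25 (Spearman's rank correlation 0.32). It was 0.11 (0.08) for expression level and 0.04 (0.04) for exon length. These are descriptions over genes that share the same 24 libraries.

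Other chromosomes put this in scale. Chromosome 8 as a whole had a median of -0.23 over 472 tested genes, chromosome 13 had -0.47, chromosome 9 had -0.18 and chromosome 19 had -0.11. The medians of the remaining chromosomes lay between -0.02 and 0.06. The lowest neighbours with a mean log2 CPM of at least 1 were GGH (-1.89 ± 0.04, SE), a lysosomal enzyme of folate turnover, SLC7A2 (-1.55 ± 0.05), a transporter of cationic amino acids, TNFRSF10D (-1.11 ± 0.05), a decoy receptor for TRAIL, and MAK16 (-1.0 ± 0.03), a ribosome assembly factor. The highest were ADAM28 (0.81 ± 0.11), PCMTD1 (0.61 ± 0.04), XKR9 (0.58 ± 0.11) and JPH1 (0.58 ± 0.04). Among neighbours at this expression level, departures thus also went in both directions. They were smaller than those of ZDHHC2 (-2.12) and CLU (1.31) within the set.

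The shift was present in every KO library. Relative to the mean WT DMSO level of each gene, the median member stood between -0.02 and 0.03 in the 12 WT libraries and between -0.55 and -0.47 in the 12 KO libraries. The other 163 genes of the span stood between -0.02 and 0.02 in WT and between -0.38 and -0.29 in KO libraries. All genes of the span together took 1.17% to 1.2% of the counts in WT and 0.975% to 1.01% in KO libraries. The ranges of the genotypes did not overlap in any of these measures.

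**Figure D2:**
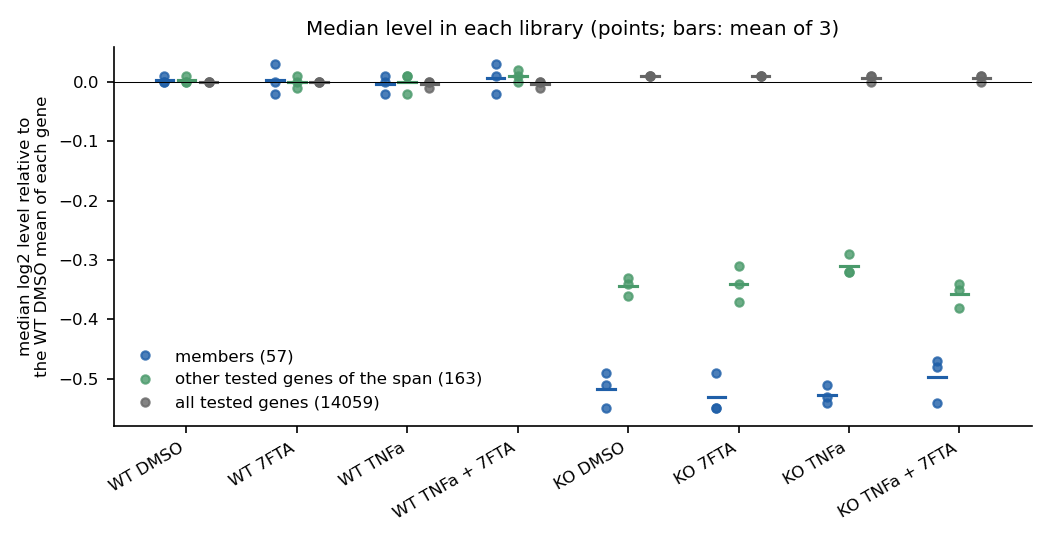
Median log2 level in each of the 24 libraries, relative to the WT DMSO mean of each gene, for the members (blue), the other tested genes of the span (green) and all tested genes (grey), with points for libraries and dashes for the mean of 3. Members stay between -0.02 and 0.03 in WT and between -0.55 and -0.47 in KO libraries, whatever the treatment.

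Of 9 members that act on DNA and chromosomes, all 9 were called lower, with a median of -0.45. Beside the counts by role group, here and below, 34.7% of all genes were called lower and 36.3% higher. Since this contrast chose the genes, nothing is read from counts by role group. KAT6A, the MOZ histone acetyltransferase (41929479 to 42052026), had 41.1 to 50.6 CPM in WT libraries (median 47.5) and 27.7 to 32.2 CPM in KO libraries (median 29), a log2 difference of -0.65 ± 0.04 (SE, 12 libraries per genotype). Its KO libraries all lay below the lowest WT library. MCPH1, a regulator of chromosome condensation (6406592 to 6648504), ranged from 19.7 to 23.9 CPM in WT (median 21.9) and from 11.4 to 13.8 CPM in KO (median 11.9), a difference of -0.84 ± 0.04.

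PRKDC, the catalytic subunit of the DNA-dependent protein kinase (47773108 to 47960183, long arm), varied more between libraries. It had 418 to 618 CPM in WT (median 503) and 329 to 498 CPM in KO libraries (median 378), so the genotypes overlapped at a difference of -0.40 ± 0.07. ASH2L, a core subunit of the MLL and SET1 histone methyltransferases, was at -0.65 ± 0.04, and POLB, the polymerase of base excision repair, at -0.51 ± 0.05. HMBOX1, which binds telomeric repeats, was at -0.45 ± 0.10 and TNKS, a tankyrase that acts on telomeres, at -0.43 ± 0.06. The WRN helicase (-0.21 ± 0.05) and REEP4 (-0.22 ± 0.04), which clears endoplasmic reticulum from mitotic chromosomes, were the smallest differences of the group.

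Among 10 genes of transcription and RNA metabolism, 8 were called lower and 2 not called, with a median of -0.57. XPO7, a nuclear transport receptor (21919671 to 22006585), had 142 to 152 CPM in WT libraries (median 148) and 91.4 to 99.2 CPM in KO libraries (median 95.2), a difference of -0.63 ± 0.02. Its libraries within a genotype differed by little compared with the gap between genotypes. INTS10, a subunit of the Integrator complex (19817140 to 19852083), had 53.2 to 62.7 CPM in WT (median 55.7) and 35.8 to 43.0 CPM in KO (median 39.6), a difference of -0.51 ± 0.03.

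The other members of the group were ERI1 (-0.71 ± 0.04), which trims histone mRNA ends, GTF2E2 (-0.68 ± 0.03), the beta subunit of TFIIE, LSM1 (-0.63 ± 0.04), a subunit of the mRNA decay ring, and ELP3 (-0.62 ± 0.03), the catalytic subunit of Elongator. BRF2, part of an RNA polymerase III initiation factor, was at -0.40 ± 0.05 and the double-stranded RNA-binding protein STAU2 at -0.53 ± 0.03. EIF4EBP1, a repressor of translation, was not called, at 96.1% of WT (-0.06 ± 0.03). Nor was the zinc finger gene ZNF395 (28345585 to 28402701), with 6.71 to 11.0 CPM in WT (median 9.34) and 7.10 to 11.4 CPM in KO libraries (median 8.81).

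Of 13 genes of the lysosome, endosomes and vesicles, 11 were called lower, 1 higher and 1 was not called, with a median of -0.59. This group held both extremes of the set. ZDHHC2, a palmitoyltransferase (17156029 to 17224799), had 18.1 to 22.7 CPM in WT libraries (median 20.7) and 3.94 to 5.57 CPM in KO libraries (median 4.82), a difference of -2.12 ± 0.05, or 23.1% of WT. CLU, the secreted chaperone clusterin (27596917 to 27615031), had 4.25 to 7.80 CPM in WT (median 5.77) and 11.5 to 18.4 CPM in KO libraries (median 14.3), a difference of 1.31 ± 0.05, or 248% of WT. Both genes thus separated the genotypes completely, in opposite directions. Some tested genes close to them stood at similar values and others did not. On one side of CLU, SCARA3 was at 1.28 ± 0.29 (mean of 0.224 CPM in WT and 0.531 CPM in KO libraries) and on the other EPHX2 at 1.23 ± 0.20 (0.398 and 0.951 CPM), both with few counts. A little further out, PTK2B was at 0.09 ± 0.07 and ESCO2 at -0.61 ± 0.05, and the members TRIM35 and CCDC25 were at -0.82 ± 0.04 and -0.57 ± 0.03. Beside ZDHHC2, CNOT7 was at -0.73 ± 0.02 and the member VPS37A, a subunit of ESCRT-I that overlaps it, at -0.64 ± 0.03, while SLC7A2 was at -1.55 ± 0.05.

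CLN8 (1755778 to 1801711), which carries lysosomal enzymes out of the endoplasmic reticulum, had 7.23 to 10.3 CPM in WT (median 8.81) and 3.52 to 5.82 CPM in KO libraries (median 4.55), a difference of -0.92 ± 0.06. CTSB, the lysosomal protease cathepsin B (11842524 to 11869448), had 137 to 166 CPM in WT (median 148) and 100 to 125 CPM in KO libraries (median 111), a difference of -0.41 ± 0.02. TPD52, a trafficking protein and the last gene of the span (80034745 to 80231232), had 92.4 to 110 CPM in WT (median 101) and 92.8 to 103 CPM in KO (median 96.7), and was not called (-0.04 ± 0.02). The rest lay between RAB11FIP1, an effector of recycling endosomes (-0.73 ± 0.03), and RB1CC1, the FIP200 scaffold of autophagy (-0.17 ± 0.03). Among these were the ESCRT-III protein CHMP7 (-0.63 ± 0.03), the Golgi nucleotidase ENTPD4 (-0.63 ± 0.03), LEPROTL1 of endosomes (-0.59 ± 0.03), the proton pump subunit ATP6V1B2 (-0.46 ± 0.03) and the acid ceramidase ASAH1 (-0.25 ± 0.03).

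Of 8 genes of lipids, mitochondria and oxidation, 5 were called lower, 2 higher and 1 was not called, with a median of -0.42. AGPAT5, an acyltransferase of phospholipid synthesis (6708357 to 6759666), had 99.7 to 113 CPM in WT (median 105) and 58.0 to 72.5 CPM in KO libraries (median 66.5), a difference of -0.70 ± 0.02. MSRA, which repairs oxidised methionine (10054268 to 10428891), had 14.0 to 17.0 CPM in WT (median 15.2) and 5.74 to 7.66 CPM in KO (median 7.02), a difference of -1.11 ± 0.04. ASPH, an aspartyl hydroxylase of the endoplasmic reticulum (61500556 to 61714640, long arm), was higher, with 594 to 696 CPM in WT (median 638) and 726 to 824 CPM in KO libraries (median 749), a difference of 0.24 ± 0.02. For all 3 the ranges of the genotypes did not meet.

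BNIP3L, the mitophagy receptor NIX (26382898 to 26505636), did overlap, with 8.74 to 13.9 CPM in WT (median 10.4) and 10.4 to 12.5 CPM in KO libraries (median 11.3), a difference of 0.12 ± 0.05. The mitochondrial iron importer SLC25A37 was at -0.72 ± 0.03, the lipase DDHD2 at -0.44 ± 0.03 and the outer membrane channel VDAC3 at -0.39 ± 0.02. ERLIN2, a lipid raft protein of the endoplasmic reticulum, was not called (-0.06 ± 0.03).

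Cytoskeletal members numbered 6, with 5 called lower, 1 higher and a median of -0.52. PCM1, the scaffold of centriolar satellites (17922840 to 18029944), had 50.7 to 57.1 CPM in WT (median 54.6) and 34.3 to 41.4 CPM in KO libraries (median 36.5), a difference of -0.54 ± 0.03. Its close neighbour MTUS1, a microtubule-associated protein (17643795 to 17800917), was on the other side, with 30.3 to 41.2 CPM in WT (median 35.0) and 35.3 to 50.6 CPM in KO (median 41.8), a difference of 0.25 ± 0.03 with overlapping ranges. The BAR-domain gene BIN3 was at -0.70 ± 0.04, the dynein adaptor HOOK3 at -0.69 ± 0.06, the kinesin KIF13B at -0.49 ± 0.05 and TACC1, a coiled-coil protein of the centrosome, at -0.15 ± 0.04.

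Signalling and ubiquitin genes made up the last group, with 9 of 11 tested called lower, 1 higher and a median of -0.57. ADAM9, a membrane metalloprotease (38996869 to 39105144), had 234 to 273 CPM in WT (median 246) and 172 to 210 CPM in KO libraries (median 183), a difference of -0.43 ± 0.02. PPP2R2A, a regulatory subunit of protein phosphatase 2A (26291491 to 26372680), had 99.8 to 116 CPM in WT (median 107) and 59.5 to 73.7 CPM in KO (median 62.7), a difference of -0.74 ± 0.02. KCTD9, a BTB-domain protein (25427847 to 25458476), had 41.4 to 51.9 CPM in WT (median 45.9) and 21.0 to 26.9 CPM in KO (median 23.1), a difference of -0.98 ± 0.03. No KO library of these genes reached the lowest WT library.

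TRIM35, a RING-type ubiquitin ligase (27284887 to 27311319), had 13.9 to 17.1 CPM in WT (median 15.5) and 7.89 to 10.3 CPM in KO (median 8.79), a difference of -0.82 ± 0.04. PPP1R3B (9136255 to 9151574), which targets a phosphatase to glycogen, was slightly higher at 0.09 ± 0.04, with 13.0 to 21.4 CPM in WT (median 16.8) and 14.7 to 20.8 CPM in KO libraries (median 17.3). IKBKB, the catalytic kinase upstream of NF-kB, was at -0.71 ± 0.04. MTMR9 was at -0.70 ± 0.05. FBXO25 (-0.57 ± 0.05) and CCDC25 (-0.57 ± 0.03) lay near the median of the set, the kinase LYN (-0.22 ± 0.05) above it, and RHOBTB2 was not called (-0.11 ± 0.05). The fibroblast growth factor receptor gene FGFR1, DLC1 and ARHGEF10 had at most 2 counts in any library. Their totals over 12 libraries each were 3 in WT and 5 in KO for FGFR1, 2 and 2 for ARHGEF10, and 1 and 0 for DLC1, too few to compare.

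On the annotation, 45 of the 60 genes overlap another annotated gene, tested or not. Of the 60, 13 overlap another tested gene, 11 of them one on the opposite strand. RHOBTB2, which overlaps TNFRSF10B and AC107959.1, and VPS37A, which overlaps CNOT7, are among these 13. The strand setting of the counting is not given in the sources used here. Reads from positions that overlapping genes share may therefore not be told apart. How much of their exons is shared was not tested.

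The median shift was similar under all 4 treatments. The median member was at -0.49 with DMSO, -0.55 with 7FTA, -0.53 with TNFα and -0.53 with both. Called lower were 42, 44, 44 and 45 of the 57, against 24.1%, 24.9%, 25.1% and 26.1% of all genes. Below 0 under all 4 treatments were 49 members, 3 were above 0 under all 4, and 5 had both signs. The range over the 4 treatments had a median of 0.15 per gene, beside a median standard error of 0.07 for a gene within 1 treatment.

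**Figure D3:**
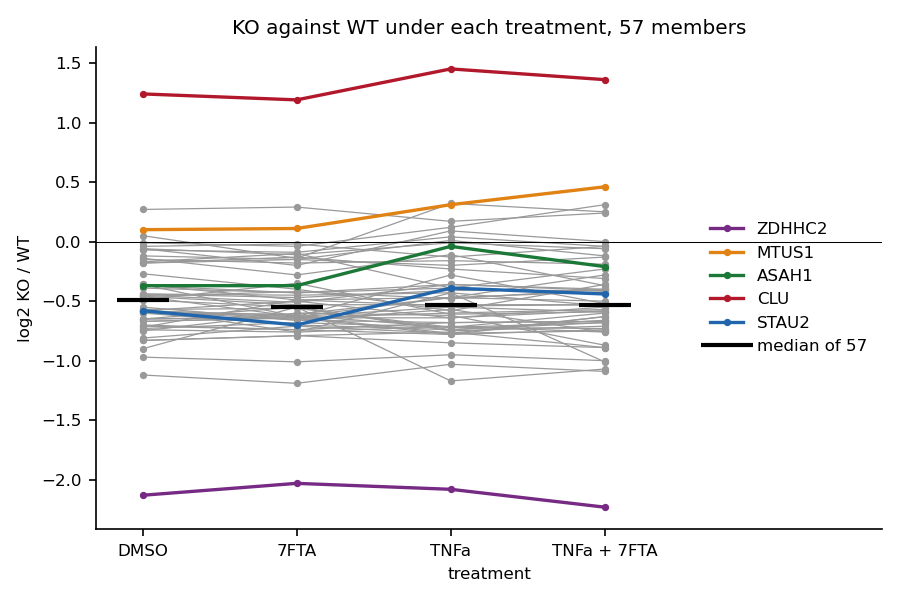
Log2 difference between KO and WT under each treatment for the 57 tested members, 1 line per gene, with black dashes at the medians (-0.49, -0.55, -0.53 and -0.53) and 5 genes in colour. The medians stay level, while the lines of ASAH1, MTUS1 and STAU2 move up under TNFα.

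Whether the genotype difference depended on treatment was tested as an interaction. Independence of treatment was among the traits by which the set was described, so few calls here are no independent result. With 7FTA, 0 of 57 members had an interaction with genotype by edgeR, DESeq2 or limma-voom (0.0% of all genes by edgeR). At an unadjusted p under 0.05 edgeR had 1 member and 495 of all genes. For 7FTA added to TNFα the count was again 0 by all 3 tools (0.064% of all genes), with 1 member and 847 of all genes at an unadjusted p under 0.05. With TNFα it was 1, ASAH1 (1.75%, against 3.55% of all genes), with 5 members and 1987 of all genes at an unadjusted p under 0.05. The interactions with TNFα ran from -0.31 to 0.32 with a median of 0.01, those with 7FTA from -0.28 to 0.35 with a median of -0.03, and those with 7FTA under TNFα from -0.58 to 0.22 with a median of 0.00. The value of -0.58 was that of HOOK3 (95% interval -0.93 to -0.23, edgeR adjusted p = 0.357), singled out after its value was seen. With TNFα it had 8.99, 8.91 and 8.98 CPM in WT and 6.12, 6.35 and 7.38 CPM in KO libraries, and with both agents 12.2, 9.82 and 12.2 CPM in WT and 5.53, 5.45 and 5.93 CPM in KO libraries. The 95% interval of a single interaction had a median reach of 0.21 (0.22 for 7FTA under TNFα) to either side of its value, and lay within -0.5 to 0.5 for 49 members with TNFα, 52 with 7FTA and 51 with 7FTA under TNFα. Dependence on treatment within that reach could go uncalled gene by gene, and so could larger values, as for HOOK3.

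In the joint test of all 3 interaction terms, 3 of 57 members were called (5.26%, against 4.83% of all genes), namely MTUS1, ASAH1 and STAU2. ASAH1, the lysosomal enzyme that splits ceramide (18055992 to 18084998), had 41.0, 43.2 and 41.4 CPM with DMSO and 28.9, 26.0 and 27.0 CPM with TNFα in WT cells. In KO cells it had 34.0, 31.9 and 31.5 CPM with DMSO and 25.9, 27.6 and 26.0 CPM with TNFα. The genotypes were thus separate with DMSO and overlapped with TNFα. The difference of TNFα from DMSO was -0.62 ± 0.06 in WT and -0.29 ± 0.06 in KO, an interaction of 0.32 (95% interval 0.14 to 0.51, edgeR adjusted p = 0.0219, joint adjusted p = 0.0298). In WT cells, 7FTA added to TNFα raised ASAH1 to 35.7, 35.5 and 32.3 CPM, by 0.34 ± 0.06 (edgeR adjusted p = 0.000287). The KO libraries with both had 29.6, 31.4 and 28.6 CPM, a difference of 0.18 ± 0.06 that was not called (edgeR adjusted p = 0.0767), and the 2 responses were not shown to differ (adjusted p = 0.886).

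The interaction of ASAH1 with TNFα rested on single libraries. By edgeR the adjusted p was 0.055 without replicate 2 of WT with DMSO, 0.0593 and 0.0678 without replicates 2 and 3 of KO with DMSO, 0.0792 without replicate 2 of WT with TNFα and 0.0716 without replicate 2 of KO with TNFα. Over all 24 fits that leave out 1 library the interaction was between 0.29 and 0.37 (adjusted p 0.0149 to 0.0792). The joint call of ASAH1 was lost in 7 of these 24 fits, at adjusted p 0.0543 without replicate 1 of WT with 7FTA, 0.0528 and 0.0524 without replicates 2 and 3 of KO with DMSO, 0.0572 without replicate 3 of KO with 7FTA, 0.098 and 0.0637 without replicates 2 and 3 of WT with TNFα and 0.0932 without replicate 2 of KO with TNFα.

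MTUS1 stood further above WT with TNFα than without it. With DMSO it had 32.1, 34.5 and 35.2 CPM in WT and 35.3, 36.7 and 37.2 CPM in KO libraries, a difference of 0.10 ± 0.06. With TNFα it had 30.3, 32.0 and 33.1 CPM in WT and 35.7, 43.1 and 40.1 CPM in KO (0.31 ± 0.06), and with both agents 34.8, 37.5 and 36.5 CPM in WT and 49.5, 49.6 and 50.6 CPM in KO (0.46 ± 0.06). The genotypes were apart in all 3 conditions, by the widest margin with both agents. With 7FTA alone, WT had 37.5, 37.7 and 41.2 CPM and KO 42.6, 42.6 and 41.0 CPM, which overlap (0.11 ± 0.06). Its interaction with TNFα taken alone was not called. The joint interaction had an edgeR adjusted p of 0.00437, and between 0.000928 and 0.0143 when any 1 of the 24 libraries was left out.

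STAU2 (73420369 to 73747708, long arm) had 42.0, 40.2 and 43.4 CPM with DMSO and 32.7, 30.8 and 33.6 CPM with TNFα in WT cells, a difference of -0.37 ± 0.06. KO cells had 28.9, 26.8 and 28.3 CPM with DMSO and 23.9, 24.9 and 25.4 CPM with TNFα, a difference of -0.18 ± 0.06. All KO libraries were below all WT libraries, but the gap was -0.58 ± 0.06 with DMSO, -0.70 ± 0.06 with 7FTA, -0.39 ± 0.06 with TNFα and -0.44 ± 0.06 with both. The interaction with TNFα taken alone was not called for STAU2. Its joint call was marginal by edgeR (adjusted p = 0.0405). It was lost at adjusted p 0.0632 with no filter on low counts and in 12 of the 24 fits without 1 library (0.0503 to 0.11). These were the fits without replicates 1 and 3 of WT with DMSO, 1 and 3 of WT with 7FTA, 2 of KO with DMSO, 2 and 3 of KO with 7FTA, 1 and 2 of WT with TNFα, 3 of WT with both agents, and 2 and 3 of KO with TNFα.

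**Figure D4:**
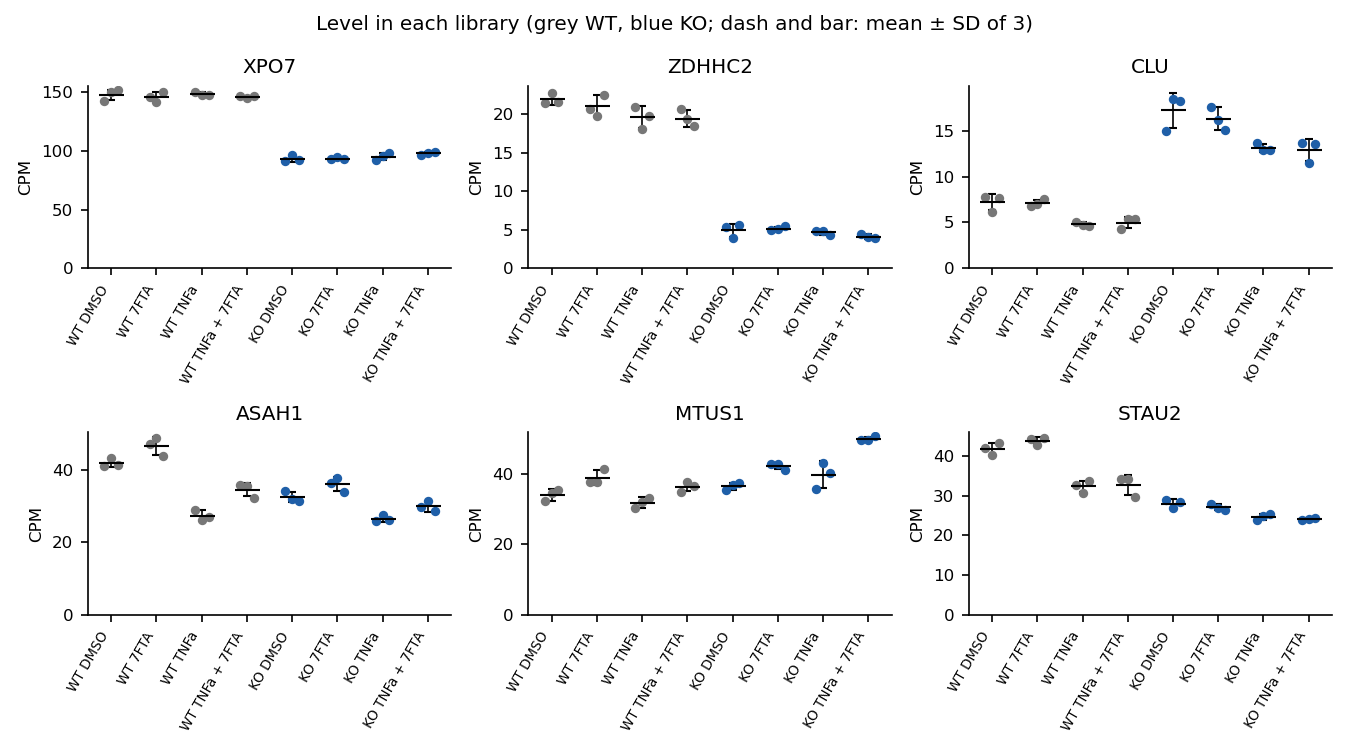
Level in CPM in each library of 6 members, with WT in grey and KO in blue and with the mean and SD of 3 libraries per group. XPO7 and ZDHHC2 are lower and CLU higher in all KO libraries. ASAH1, MTUS1 and STAU2 were called in the joint interaction test. The joint call was lost in 7 of 24 fits without 1 library for ASAH1 and in 12 for STAU2.

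TNFα itself moved members of the set in both directions. In WT cells 19 of 57 were called (33.3%, against 38.4% of all genes), 12 lower (21.1%, against 18.9%) and 7 higher (12.3%, against 19.5%). In KO cells 17 were called (29.8%, against 30.9%), 12 lower (21.1%, against 14.8%) and 5 higher (8.77%, against 16.1%). Called in both genotypes, each time with the same sign, were 15, which is 78.9% of the WT calls and 88.2% of the KO calls. The median response was 0.00 in WT and -0.01 in KO.

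RHOBTB2 (22987417 to 23020199) fell most in both genotypes, from 9.83, 8.91 and 10.7 CPM to 5.48, 6.06 and 5.52 CPM in WT (-0.79 ± 0.11, edgeR adjusted p = 3.65e-08) and from 9.35, 8.85 and 7.97 CPM to 5.21, 5.93 and 6.13 CPM in KO cells (-0.59 ± 0.11, adjusted p = 1.54e-05). CLU fell from 7.80, 6.17 and 7.66 CPM to 5.05, 4.72 and 4.61 CPM in WT and from 15.0, 18.4 and 18.2 CPM to 13.6, 12.9 and 12.9 CPM in KO cells (-0.60 ± 0.13 and -0.39 ± 0.09). It therefore responded to TNFα in both genotypes while its KO libraries stayed above every WT library. PPP1R3B fell from 19.7, 18.8 and 21.4 CPM to 14.0, 14.3 and 14.8 CPM in WT, and from 19.6, 20.8 and 19.3 CPM to 14.7, 16.3 and 16.0 CPM in KO cells (-0.48 ± 0.07 and -0.35 ± 0.07). REEP4 (22138020 to 22141951) fell as well (-0.25 ± 0.07 in WT and -0.47 ± 0.08 in KO cells), as did EIF4EBP1 (38030341 to 38060365; -0.34 ± 0.07 and -0.42 ± 0.07).

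RB1CC1 (52622456 to 52745843) showed the largest rise, from 31.6, 34.5 and 33.5 CPM to 41.6, 40.0 and 44.3 CPM in WT (0.34 ± 0.06, edgeR adjusted p = 1.96e-05) and from 31.4, 30.4 and 28.0 CPM to 34.4, 40.6 and 37.5 CPM in KO cells (0.33 ± 0.06, adjusted p = 5.8e-05). No TNFα library of either genotype overlapped its DMSO libraries. GTF2E2 (30578318 to 30658251) rose from 44.1, 41.7 and 47.0 CPM to 54.2, 50.8 and 59.7 CPM in WT (0.31 ± 0.06) and from 29.3, 28.8 and 29.6 CPM to 33.8, 32.3 and 32.4 CPM in KO cells (0.17 ± 0.06, edgeR adjusted p = 0.0329). ADAM9 rose by 0.17 ± 0.03 in WT and 0.19 ± 0.03 in KO cells. ASPH (0.18 ± 0.03) and CHMP7 (0.24 ± 0.06; 23243637 to 23262000) were called in WT cells, with 0.08 ± 0.03 and 0.10 ± 0.07 in KO cells, and PCM1 in KO cells (0.17 ± 0.05), with 0.05 ± 0.05 in WT. None of these 3 had a called interaction (adjusted p 0.374, 0.537 and 0.48).

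Leaving out 1 library in turn ended 3 of the TNFα calls named here, all in KO cells. For GTF2E2 the call was lost by edgeR without any of the 3 KO libraries with DMSO or without replicate 1 or 3 of KO with TNFα (adjusted p 0.0513 to 0.121). For PCM1 it was lost without replicate 3 of KO with TNFα (adjusted p = 0.0507). For STAU2 it was lost without replicates 1 or 3 of KO with DMSO or replicate 1 of KO with TNFα (0.0637 to 0.093), and with no filter on low counts (0.0604).

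7FTA moved few members. Against DMSO, 1 of 57 was called in WT (1.75%, against 2.05% of all genes) and 3 in KO cells (5.26%, against 2.38%). TACC1 (38728186 to 38853028) had 23.5, 21.2 and 24.7 CPM with DMSO and 19.2, 18.0 and 19.9 CPM with 7FTA in WT (-0.29 ± 0.08, edgeR adjusted p = 0.0443). In KO cells it had 21.5, 19.3 and 23.3 CPM with DMSO and 15.4, 16.3 and 19.7 CPM with 7FTA (-0.32 ± 0.08, adjusted p = 0.0184). The groups were apart in WT and overlapped in KO cells. CTSB fell in KO cells from 120, 125 and 120 CPM to 109, 113 and 108 CPM (-0.15 ± 0.04, edgeR adjusted p = 0.0239), and MTUS1 rose (0.21 ± 0.06, adjusted p = 0.0308).

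Added to TNFα, 7FTA was called for 1 member in WT (1.75%, against 5.54% of all genes), which was ASAH1. In KO cells it was called for 2 (3.51%, against 7.52%). MTUS1 rose by 0.33 ± 0.06 (edgeR adjusted p = 2.99e-05) and CTSB fell from 105, 119 and 112 CPM to 100, 104 and 105 CPM (-0.12 ± 0.04, adjusted p = 0.0399), with 105 CPM reached in both groups.

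Most of these 7FTA calls rested on single libraries. The TACC1 call in WT cells was lost by edgeR without replicates 1 or 3 of WT with DMSO, any of the 3 WT libraries with 7FTA, replicate 1 of KO with DMSO or replicate 2 of KO with TNFα (adjusted p 0.0516 to 0.229), and by DESeq2 (0.0513). In KO cells it was lost without replicates 1 or 3 with DMSO or 1 or 2 with 7FTA (0.0639 to 0.22). The CTSB call with 7FTA was lost without replicate 2 of KO with DMSO or replicates 1 or 3 of KO with 7FTA (0.103 to 0.168), and with no filter on low counts (0.12). That of MTUS1 with 7FTA alone was lost without any 1 of the 6 KO libraries with DMSO or 7FTA (0.0519 to 0.143). With TNFα present, CTSB lost its call in 10 of 24 fits (0.0504 to 0.308), namely without replicate 2 of WT with 7FTA, any of the 3 WT libraries with TNFα, replicate 3 of WT with both, replicates 2 or 3 of KO with TNFα, and any of the 3 KO libraries with both. It was also lost with no filter (0.117) and by limma-voom (0.0546). MTUS1 and ASAH1 kept their calls for 7FTA added to TNFα in all 24 fits.

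Several members are subunits of complexes whose other parts are encoded elsewhere. A list of 112 partner genes in 14 complexes or pathways, not all of them subunits, gave 105 tested genes, 102 of them outside the span. By edgeR 42 of the 102 were lower in KO cells, 31 higher and 29 not called, with a median of -0.02 (34.7% and 36.3% of all genes were lower and higher). Of 79 partners outside chromosomes 6, 8, 9, 13 and 19, on which earlier results had shown stretches of lower expression, 26 were lower, 27 higher and 26 not called, with a median of 0.00. Of the 23 on those chromosomes 16 were lower and 4 higher, with a median of -0.20. With scaling factors taken from genes outside these 5 chromosomes, 48 of the 102 were lower and 24 higher.

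**Figure D5:**
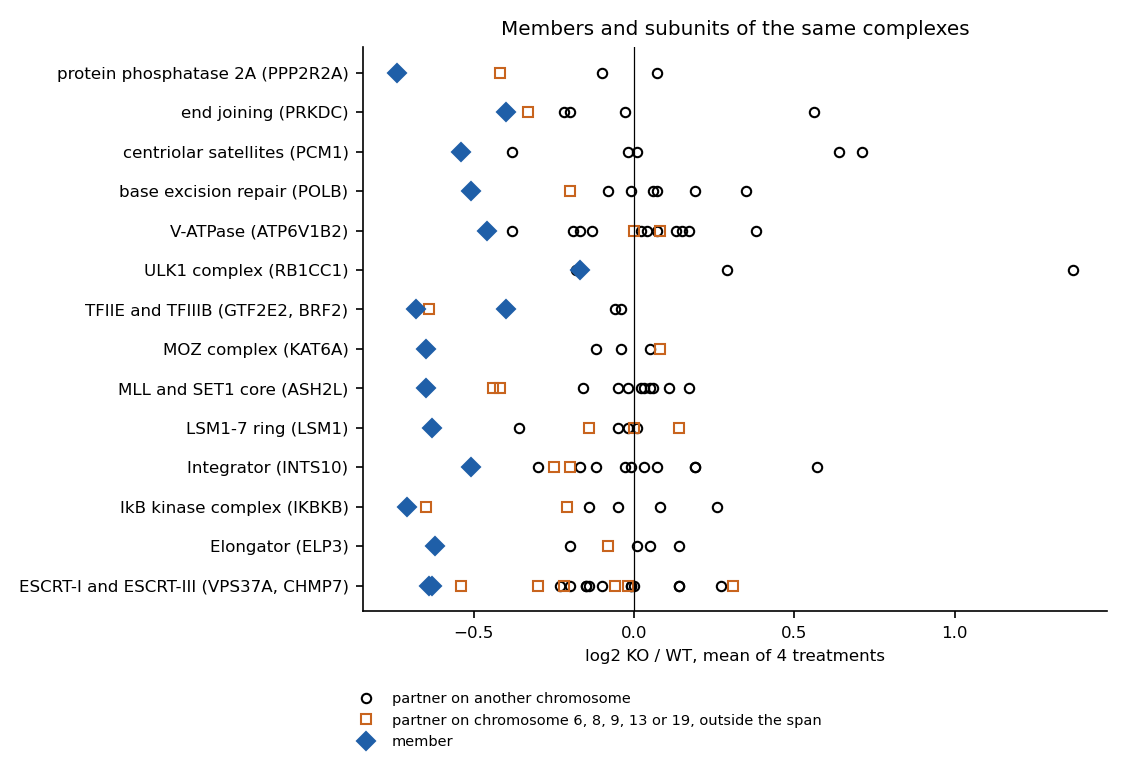
Log2 difference between KO and WT (mean of 4 treatments) of members (blue diamonds) and of tested partners in the same complexes or pathways, not all of them subunits. Partners are encoded outside the span, on chromosomes 6, 8, 9, 13 or 19 (orange squares) or elsewhere (open circles). Partners on other chromosomes lie on both sides of 0 (median 0.00), with ULK1 highest at 1.37.

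Complex by complex, the medians of the partners lay near 0 for most members that were lower. In the V-ATPase, which acidifies lysosomes, ATP6V1B2 was at -0.46, while the 13 tested partners outside the span had a median of 0.04, with 4 lower and 6 higher. ATP6AP1 was 158 ± 9.49 CPM in KO and 122 ± 9.40 CPM in WT libraries (SD, n = 12; log2 difference 0.38 ± 0.02, SE, edgeR adjusted p = 4.17e-23), and ATP6V0A2 was lower (-0.38 ± 0.03). For Elongator, whose catalytic ELP3 was at -0.62, the 5 partners had a median of 0.01. For the base excision repair partners of POLB the median of 7 was 0.06, and for the MLL and SET1 partners of ASH2L the median of 11 was 0.02. There KMT2B on chromosome 19 (-0.44 ± 0.02) and WDR5 on chromosome 9 (-0.42 ± 0.02) were lower.

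In the Integrator complex, 12 partners outside the span had a median of -0.02, with INTS2 higher (0.57 ± 0.04), whereas INTS9, encoded on chromosome 8 within the span, was at -0.72 ± 0.04. For IKBKB, the list held CHUK (-0.05 ± 0.02) and IKBKG (0.26 ± 0.05), which are subunits of the IkB kinase complex. It also held MAP3K7, TAB1, TAB2 and NFKBIA, which are not. Of these 6 partners 4 were lower and 2 higher, with TAB2 on chromosome 6 the lowest (-0.65 ± 0.02). TBP, also on chromosome 6 and a partner of BRF2, was at -0.64 ± 0.04. In protein phosphatase 2A, the scaffold PPP2R1A on chromosome 19 was lower (-0.42 ± 0.02), and the catalytic PPP2CB, within the span, was at -0.48 ± 0.02.

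Among ESCRT-I and ESCRT-III partners of VPS37A and CHMP7, 10 of 18 were lower and 4 higher, with a median of -0.08, and CHMP4C, on chromosome 8 beyond the span, was the lowest (-0.54 ± 0.03). ULK1, the kinase that RB1CC1 serves as a scaffold, was higher in KO cells, with 10.5 ± 1.54 CPM against 4.05 ± 0.441 CPM in WT (SD, n = 12; 1.37 ± 0.06, SE, edgeR adjusted p = 6.25e-25). Of the partners of PCM1 at centriolar satellites, BBS4 (0.71 ± 0.04) and CEP290 (0.64 ± 0.04) were higher and CEP72 (-0.38 ± 0.04) lower. Of the 5 end-joining partners of PRKDC, 3 were lower, 1 was higher and 1 was not called, with a median of -0.20. XRCC6 (-0.22 ± 0.02), XRCC5 (-0.20 ± 0.01) and LIG4 on chromosome 13 (-0.33 ± 0.03) were the lower ones and XRCC4 (0.56 ± 0.04) the higher. LSM3, a partner of LSM1, was lower (-0.36 ± 0.03), in a complex with 3 of 7 partners lower, 1 higher and a median of -0.02.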

How the data were processed

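Poly(A) RNA was sequenced in 24 libraries, which were put into their 8 groups by the labels. Raw counts per gene are what the authors deposited, per the labels. Tools listed in the submitters' processing notes are featureCounts 1.6.4, STAR 2.6.1d and DESeq2 1.20.0, with GRCh38 as the build. The annotation release and the strand setting are not given in the sources used here. Positions came from GENCODE 29 by gene identifier, and all 60 members matched.

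From these counts, edgeR 4.0.16 (R 4.3.3) fitted 1 robust quasi-likelihood model to the 24 libraries with TMM scaling, after filterByExpr had left 14059 of 60623 genes. Tests were two-sided, with Benjamini-Hochberg adjustment over every tested gene and a threshold of 0.05. Standard errors (SE) were derived from the log2 difference and its F statistic. CPM used TMM-scaled library sizes. The common biological coefficient of variation was 4.06%. Simulated data on 14059 genes held shifts of 0.5 or 1 (log2) in a small part of the genes. Of the shifted genes, 73% and 75% were recovered for KO against WT with DMSO (5.73% of calls false). For the TNFα interaction 64% and 78% were recovered (4.7% false). In the data themselves 48.1% of all genes were called for KO against WT with DMSO. The simulated rates are therefore no measure of the power of the tests here.

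The members, their role groups, the partner list and the tests were chosen with earlier results of these data known. Values are given by library for the 6 lowest and 6 highest members, those called in interactions, up to 4 rises and 4 falls per treatment comparison, and the 2 members with most CPM in each role group. For some of these the difference alone is printed. Other members are described by their difference. Named partners were the largest called changes of a complex, and named neighbours the 4 lowest and 4 highest. Added after their values were seen were INTS9 and PPP2CB, XRCC5, HOOK3 and the neighbours of CLU and ZDHHC2, and the TNFα values of members printed for a second genotype. Alternatives were DESeq2 1.42.0, limma-voom (limma 3.58.1), no filter, scaling on genes outside 5 chromosomes, a block for replicate number, members at a mean log2 CPM of 4 or more, and leaving out each library. No sequence is printed.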

Additional observations from a re-analysis of the deposited data

Results flagged for a closer look

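The difference between KO and WT cells was not the same under the 4 treatments for 3 members, by a joint test of the interactions in edgeR. They were 5.26% of the 57 tested members, near the 4.83% of all genes called by the same test. The adjusted p was 0.00437 for MTUS1, 0.0298 for ASAH1 and 0.0405 for STAU2. For ASAH1 the response to TNFα also differed between the genotypes, by 0.32 on the log2 scale (KO minus WT). Under TNFα the KO levels of ASAH1 and STAU2 were nearer to WT than with DMSO, and that of MTUS1 was further above it. The interaction with TNFα taken alone was called for ASAH1 but not for STAU2 or MTUS1. The calls of ASAH1 and STAU2 were lost without single libraries, as given with their values above, and that of MTUS1 was not.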

How the results depend on the processing

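The median KO to WT difference of the members stayed negative under every alternative run. With scaling on genes outside chromosomes 6, 8, 9, 13 and 19 it was -0.56 over the mean of 4 treatments, -0.52 with DMSO, -0.58 with 7FTA, -0.56 with TNFα and -0.56 with both, and -0.38 for the other genes of the span. With no filter it was -0.50 with 7FTA and -0.50 with TNFα, and -0.23 for the other genes of the span. Without 1 library in turn it ran from -0.55 to -0.52 (mean), -0.53 to -0.48 (DMSO), -0.56 to -0.51 (7FTA), -0.53 to -0.48 (TNFα) and -0.55 to -0.51 (both). Members called lower numbered 47 to 49 in those fits, and 51 with the scaling outside the 5 chromosomes. All 1653 alternative values of single members for KO against WT kept their direction. Of the values of named members under treatment, 917 kept direction and call, 69 lost the call and 0 reversed.

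Counts of members called were small and moved easily. Without 1 library they ran from 0 to 2 for the TNFα interaction, 1 to 4 for the joint interaction, 0 to 2 and 0 to 3 for 7FTA against DMSO in WT and KO cells, 17 to 20 and 13 to 19 for TNFα, and 1 to 2 and 1 to 3 for 7FTA added to TNFα. By DESeq2, 7FTA against DMSO gave 0 calls in WT cells. 7FTA added to TNFα gave 1 call in KO cells with no filter and 1 with limma-voom. The cause of these changes was not tested. With a replicate block, 7FTA gave 2 calls in WT cells and, added to TNFα, 3. Replicate numbers were not used as pairs in the main fit. The mean correlation of same-numbered deviations was 0.0191 (range -0.0649 to 0.119), against -0.00957 for other numbers. Of 24 libraries, 17 correlated best with their own number, more than the 1 in 3 that unlinked numbers would give on average. Whether same-numbered libraries were handled together was not tested. Low counts limited FGFR1, DLC1 and ARHGEF10, which could not be compared.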
